A study of Caenorhabditis elegans with 2 samples.

Results

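The 10 genes described here make and run the intestine of Caenorhabditis elegans, and the question is where the DNA-binding protein GMEB-1 lay at them. They are the GATA factor genes elt-2 and elt-7, the apical membrane and cytoskeleton genes erm-1, act-5 and ifb-2, and 5 genes for digestion, nutrient uptake and metal binding, ges-1, pept-1, asp-1, cpr-1 and mtl-2. They are 10 of 19973 protein-coding genes on the nuclear chromosomes. They were selected by name, with earlier results on these same regions known, so the signals and ranks below are a description with no test. For each gene the window ran from 2 kb upstream of its 5' end to its 3' end.

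The data are regions from chromatin immunoprecipitation and sequencing of 1 group of 2 biological replicates. Both are whole L2 larvae, males and females pooled and of unknown age, of strain OP343. That strain has the genotype unc-119(ed3) III; wgIs343, where wgIs343 is a transgene for eGFP-tagged gmeb-1. The labels name gmeb-1 as the antibody's target and describe the assay as one against eGFP-gmeb-1, so whether tagged protein alone was precipitated is not clear from them. They do not say what drives the transgene, and no untagged strain or other stage was available for comparison. Whole animals were used, so a region at a gut gene does not show in which tissue GMEB-1 was bound. The regions that the authors kept by irreproducible discovery rate (IDR) numbered 3909, each with a summit and a signal given by the authors' caller. Signals ran from 38.7 to 2077 with a median of 68.4, and rank 1 is the strongest. The number of reads is unknown. The relaxed lists, which include background, held 28693 regions in replicate 1 and 30000 in replicate 2. Their signals are on different scales, with maxima of 191.1 and 1996, so replicates are compared by rank. Of the 3909 IDR summits 879 (22.5%) were covered by a region of replicate 2 only, so an IDR summit did not need a region of both replicates over it. A region of replicate 1 beside such a summit was not counted. The top of the IDR list followed the order of replicate 2. Its ranks 1 and 8 were ranks 1 and 8 there, but ranks 7 and 180 in replicate 1.

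The worm intestine is a tube of large polarised cells whose fate is set by GATA transcription factors. ELT-2 is the main one in larvae, acts with ELT-7, and binds the sequence TGATAA and close variants in front of many genes of the differentiated gut. Those genes build the microvilli and the filament-rich terminal web beneath them, and supply the digestive enzymes, transporters and metal-binding proteins of the mature organ. GMEB-1 is a relative of mammalian glucocorticoid modulatory element binding proteins, which recognise an ACGT core through a SAND domain.

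The sequences below carry the positions that the rest of the account refers to. Each is the 101 bases centred on an IDR summit in genome build WBcel235 (ce11), read 5' to 3' on the strand of the named gene. Capitals mark the short motifs searched on either strand, whose letters and shares are given with the motif counts, and in elt-2 a long palindrome. The first pair shows the strongest summits of the set, those of ges-1. Then follow the summit of elt-2, the promoter summit of pept-1, both summits of act-5 and the summit of ifb-2.
ges-1, 1155 bp upstream, chrV:1433242-1433342, minus strand: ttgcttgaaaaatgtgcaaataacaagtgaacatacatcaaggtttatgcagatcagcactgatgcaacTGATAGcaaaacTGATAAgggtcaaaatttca
ges-1, 504 bp upstream, chrV:1432591-1432691, minus strand: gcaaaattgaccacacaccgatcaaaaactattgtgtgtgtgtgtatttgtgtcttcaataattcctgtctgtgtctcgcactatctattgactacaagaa
elt-2, 464 bp upstream, chrX:10480726-10480826, plus strand: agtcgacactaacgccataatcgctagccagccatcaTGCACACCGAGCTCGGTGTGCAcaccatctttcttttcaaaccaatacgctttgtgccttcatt
pept-1, 141 bp upstream, chrX:6456681-6456781, plus strand: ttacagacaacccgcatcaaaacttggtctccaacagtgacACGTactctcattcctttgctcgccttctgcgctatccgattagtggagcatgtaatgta
act-5, 226 bp upstream, chrIII:13606242-13606342, minus strand: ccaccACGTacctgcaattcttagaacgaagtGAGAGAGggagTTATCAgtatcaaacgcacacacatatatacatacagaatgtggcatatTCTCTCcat
act-5, 1936 bp upstream, chrIII:13607952-13608052, minus strand: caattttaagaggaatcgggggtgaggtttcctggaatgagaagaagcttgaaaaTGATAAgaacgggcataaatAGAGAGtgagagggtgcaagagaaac
ifb-2, 1607 bp upstream, chrII:5748531-5748631, plus strand: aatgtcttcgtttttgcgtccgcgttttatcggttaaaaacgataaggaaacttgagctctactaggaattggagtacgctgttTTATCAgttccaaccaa

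Of the 10 genes, 7 had at least 1 IDR summit in the window (ges-1, elt-2, erm-1, pept-1, act-5, ifb-2 and asp-1), and elt-7, cpr-1 and mtl-2 had none. Over all 19973 protein-coding genes 22.1% had one. Since the 10 genes were picked with such results known, nothing is read from that difference. The windows of the 10 genes had a median length of 4310 bp, from 2404 bp at mtl-2 to 9579 bp at erm-1, against a median of 4027 bp over all genes. The 7 genes held 10 summits, of which 8 were upstream of the 5' end, 1 was in an intron and 1 in a coding exon. The genes ges-1, pept-1 and act-5 had 2 summits each, and 2.87% of all genes had 2 or more. Apart from the 2 at ges-1, the summits had signals from 43.6 to 77.7, against a median of 68.4 over the IDR list. Of the 10 summits, 4 were among the 1954 strongest of the 3909 IDR regions, a share close to that of the cut itself. The median best rank was 2164 for the 7 genes, against 1498 for all genes with a summit.

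**Figure D1:**
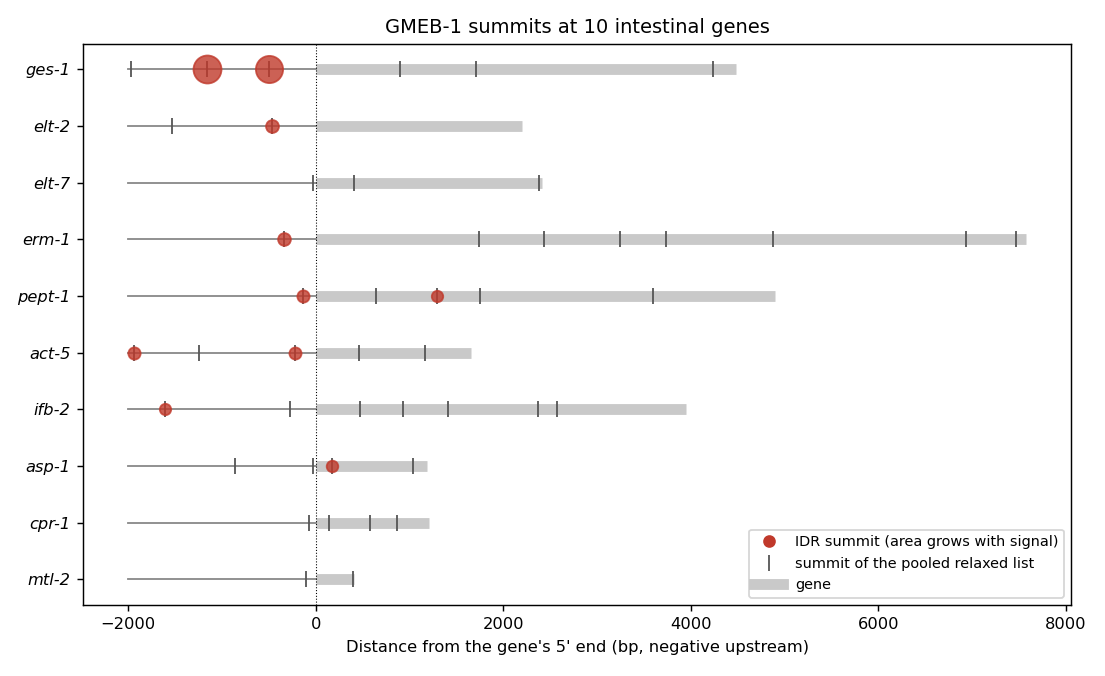
Positions of GMEB-1 summits along the 10 genes, in bp from the 5' end of each gene with upstream to the left, where red discs are IDR summits with an area that grows with signal, ticks are summits of the relaxed list called on both replicates together, and grey bars are the genes. The largest discs are the summits 1155 and 504 bp upstream of ges-1, and elt-7, cpr-1 and mtl-2 carry ticks but no disc.

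The gut esterase gene ges-1 stood apart in strength. It lies on the minus strand of V (1427653 to 1432137, WBGene00001578), and its summits at V 1433292 and V 1432641, 1155 and 504 bp upstream of its start, shared 1 region of 1909 bp. Their signals were 645.9 and 606.1, ranks 87 and 102 of the IDR list. The best rank of 137 protein-coding genes, ges-1 included, was 87 or better. No other protein-coding start was nearer to either summit. At the other 6 genes with a summit no signal was above 77.7.

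The replicates ranked the ges-1 summits differently. In replicate 1 the regions covering them were the strongest and the next strongest of the whole list, with signals of 191.1 at rank 1 (summit 537 bp upstream) and 111.3 at rank 2 (1133 bp upstream), and the region at rank 3 had 94.1. In replicate 2 the matching summits had signals of 440.9 at rank 177 (482 bp upstream) and 542.0 at rank 113 (1150 bp upstream). The order within the pair was thus reversed, with the proximal summit stronger in replicate 1 and the distal one in replicate 2. The strongest covering region in replicate 2, at rank 113, held both summits, so its rank was 113 and 56.5 times that in replicate 1.

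Enrichment in replicate 1 went on further upstream of ges-1. Regions with summits 1940, 2454 and 3197 bp upstream had signals of 15.5, 32 and 19.1 and ranks of 768, 144 and 501. In replicate 2 the nearest counterparts, 1969, 2448 and 2988 bp upstream, ranked 13585, 3336 and 3865. The IDR list also had summits 2467 and 3120 bp upstream of ges-1, at ranks 1851 and 3414, outside the 2 kb limit. They were 2 of 4 IDR summits between 2 and 5 kb upstream of the 10 genes, the others being at asp-1 (2797 bp) and elt-2 (3424 bp). The farthest upstream inside the limit was that 1936 bp from act-5. Inside the ges-1 gene no region of replicate 1 ranked better than 7360 and none of replicate 2 better than 26506, so at ges-1 the strong regions were upstream.

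**Figure D2:**
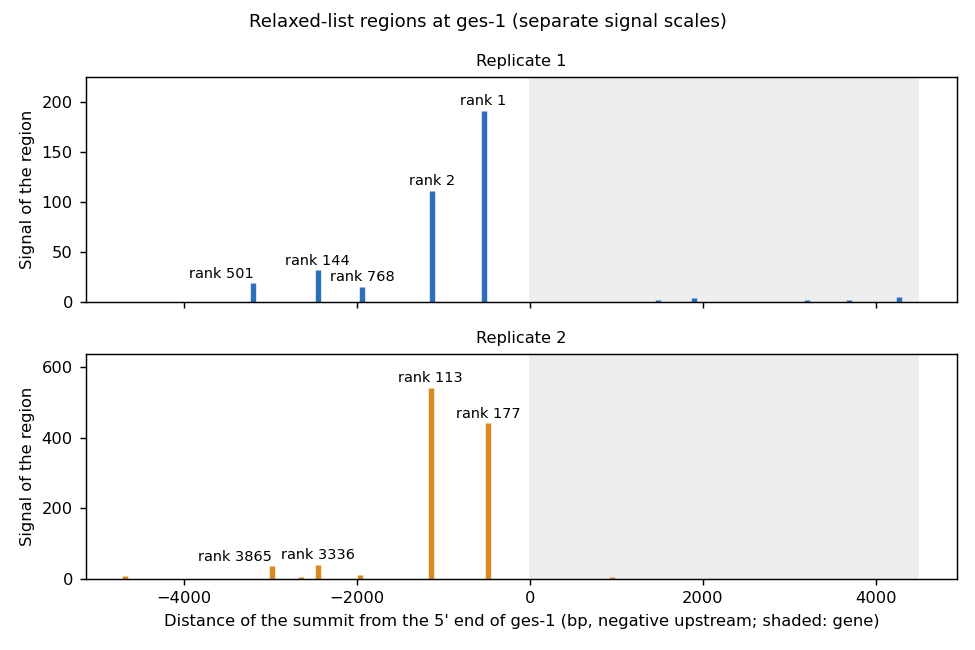
Signal of every relaxed-list region of replicate 1 (upper panel) and replicate 2 (lower panel) against the distance of its summit from the 5' end of ges-1 in bp, on separate signal scales. Replicate 1 has its ranks 1 and 2 here and ranks 144, 501 and 768 further upstream, whereas replicate 2 has ranks 113 and 177 and then 3336 and 3865.

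The 10 strongest regions of either replicate had scattered ranks in the other. Of the 10 strongest of replicate 1, which include the 2 at ges-1, 9 were overlapped by at least 1 bp of a region of replicate 2, whose best rank ran from 1 to 2696 with a median of 185. All 10 strongest of replicate 2 were overlapped in replicate 1, at ranks from 7 to 283 with a median of 66.5, and none of them was at ges-1. At rank 5 of replicate 1 stood a region in an intron of unc-119, the gene whose mutation the strain carries and which worm transgenes of this kind commonly use as a marker. Its summit lay 2726 bp downstream of the 5' end of unc-119 with a signal of 89.6, and the replicate 2 summit 2655 bp downstream of that end ranked 491. Further regions of replicate 1 in unc-119, 5276, 6054, 2187 and 3848 bp downstream, ranked 38, 185, 252 and 339. The next in replicate 2, 5247, 1915 and 6128 bp downstream, ranked 925, 2585 and 3321. The regions at ranks 3 and 4, at other genes, differed more. The region at rank 3 of replicate 1 had no overlap in replicate 2, and that at rank 4 was overlapped there at rank 2696. Whether transgene DNA or another difference between the replicates had a part in the ranks at ges-1 was not tested.

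The GATA factor gene elt-2, on X (10481240 to 10483441, plus strand, WBGene00001250), had 1 summit at X 10480776, 464 bp upstream, with a signal of 77.7 at rank 1689. Replicate 1 had its counterpart 477 bp upstream with a signal of 7.3 at rank 3224, and replicate 2 had it 441 bp upstream with 68.5 at rank 1720. The ranks were within a factor of 1.87, so both replicates had elt-2 at similar places. An IDR summit 3424 bp upstream of elt-2, outside the limit, ranked 3514 and was 943 bp from the start of C39B10.7. In replicate 2 a further region 1633 bp upstream ranked 5066, with no counterpart in replicate 1. The other GATA factor gene, elt-7 on V (4770670 to 4773086, plus strand, WBGene00015981), had no IDR summit. Its strongest region in the list called on both replicates was 31 bp upstream, with a signal of 24.5 at rank 6376. Replicate 2 had a region at the same distance with a signal of 21.3 at rank 6638, and replicate 1 had only a region 801 bp upstream at rank 12852, with a signal of 3.7.

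The elt-2 summit lay inside a perfect palindrome of 22 bp, capitalised above, which ran from 13 bp before the summit to 8 bp after it. No other of the 3909 IDR windows of 101 bp held one as long (0.0256% of windows, this one). The next longest was 20 bp, the median was 6 bp, and 164 windows reached 12 bp. The 22 bp occurred once in the nuclear genome. The palindrome was looked for after the sequence had been seen, and the window held none of the motifs searched.

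The apical membrane gene erm-1 encodes an ezrin-radixin-moesin protein that links the membrane to actin and is needed to form the gut lumen. It lies on chromosome I (5284026 to 5291604, minus strand, WBGene00001333). Its summit at 5291939, 335 bp upstream, had a signal of 75.2 at rank 1759. In replicate 1 the region had a signal of 8.22 at rank 2559, and in replicate 2 it had 66 at rank 1797. The ranks were within a factor of 1.42, close to that of the proximal act-5 summit (1.38). Replicate 2 listed 12 regions over the erm-1 window and replicate 1 listed 5, most of them weak, and none in the gene body ranked better than 5692.

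The actin gene act-5, which supplies the actin of intestinal microvilli, lies on III (13604412 to 13606066, minus strand, WBGene00000067) and had 2 summits. The proximal one at III 13606292, 226 bp upstream, had a signal of 59.5 at rank 2341, with 7.2 at rank 3323 in replicate 1 and 52 at rank 2416 in replicate 2. The distal one at III 13608002, 1936 bp upstream, had a signal of 63.1 at rank 2164. It was only 18 bp from the start of shpk-1, which runs in the opposite direction, so it cannot be told apart from a summit of that gene. In replicate 1 it was weak, with 4.87 at rank 7678, against 60.6 at rank 1976 in replicate 2. Counting only summits nearest to the gene's own start left act-5 with the proximal one.

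The intermediate filament gene ifb-2, a component of the terminal web, lies on II (5750188 to 5754140, plus strand, WBGene00002054). Its 1 summit, at II 5748581 and 1607 bp upstream, was the weakest of the set, with a signal of 43.6 at rank 3426. Replicate 2 had it with a signal of 43 at rank 3075 and replicate 1 had no region there. Another region in the gene, 1405 bp from the start, had a signal of 38.3 at rank 3959 in the list called on both replicates. That is just below the lowest signal of the IDR list, 38.7, while the ifb-2 summit was above it. In replicate 1 the window of ifb-2 held a single region, 1088 bp upstream at rank 10691.

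The peptide transporter gene pept-1, whose product takes up dipeptides and tripeptides from the gut lumen, lies on X (6456872 to 6461767, plus strand, WBGene00003877). Its promoter summit at X 6456731, 141 bp upstream, had a signal of 62.6 at rank 2186. In replicate 1 it had 10.5 at rank 1622 and in replicate 2 it had 50.3 at rank 2512, so apart from ges-1 it was the one summit of the set that ranked better in replicate 1. Its intronic summit at X 6458160, 1288 bp downstream of the start, had 45.1 at rank 3288, and lay in a region of replicate 2 (rank 2883) and none of replicate 1. The nearest region of replicate 1 had its summit 1522 bp downstream of the start, with 4.31 at rank 9758.

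The digestive protease genes asp-1 and cpr-1 differed between the replicates, asp-1 in the place of its strongest region and cpr-1 in its rank. At asp-1, an aspartic protease gene on V (19049562 to 19050752, minus strand, WBGene00000214), the summit at V 19050584 lay in a coding exon 168 bp inside the gene, with a signal of 48.6 at rank 3012. Replicate 2 had it with 51.6 at rank 2430. Replicate 1 had no region over it, but had regions 176 bp upstream at rank 3620 and 1007 bp inside the gene at rank 3197. Replicate 2 had a region 937 bp inside the gene at rank 8143. Beyond the 2 kb limit a stronger IDR summit, 2797 bp upstream and nearest to the start of asp-1, had a signal of 57.4 at rank 2439, with rank 7605 in replicate 1 and 2374 in replicate 2. At cpr-1, a cysteine protease gene on V related to cathepsin B (11975551 to 11976756, plus strand, WBGene00000781), there was no IDR summit. Replicate 1 had a region 118 bp upstream with a signal of 12.9 at rank 1121, better than its regions at elt-2, erm-1, pept-1 and act-5. Replicate 2 had its counterpart 71 bp upstream with a signal of 20 at rank 7063, and the list called on both replicates had 32.9 at rank 4704. The start of the non-coding gene C52E4.17 is 71 bp upstream of cpr-1, on the other strand.

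The metallothionein gene mtl-2, which encodes a small metal-binding protein, lies on V (14018270 to 14018673, minus strand, WBGene00003474) and had no IDR summit and no region at all in replicate 1. Replicate 2 had a region 100 bp upstream with a signal of 19.5 at rank 7299. The start of the protein-coding gene T08G5.1 is 93 bp upstream, on the other strand.

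Of the 10 IDR summits, 2 ranked at least 5 times better in replicate 1 (both at ges-1) and 5 were within a factor of 5. The other 3 (pept-1 in the intron, ifb-2 and asp-1) were covered by a region of replicate 2 only. Over the whole IDR list 4.48% ranked at least 5 times better in replicate 1 and 22.5% were covered in replicate 2 only. A further 15.5% ranked at least 5 times better in replicate 2, and 56.8% were within that factor. When each replicate's own 3909 strongest regions were used, 7 of the 10 genes had a summit in replicate 1, where 18.2% of all genes had one, and 7 in replicate 2, where 22.2% had one. The genes were not the same, since replicate 1 had cpr-1 and lacked ifb-2. The other 6 genes (ges-1, elt-2, erm-1, pept-1, act-5 and asp-1) had summits in the IDR list and in both replicates' strongest regions. These could lie anywhere in the window, and at asp-1 no region of replicate 1 covered the IDR summit.

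**Figure D3:**
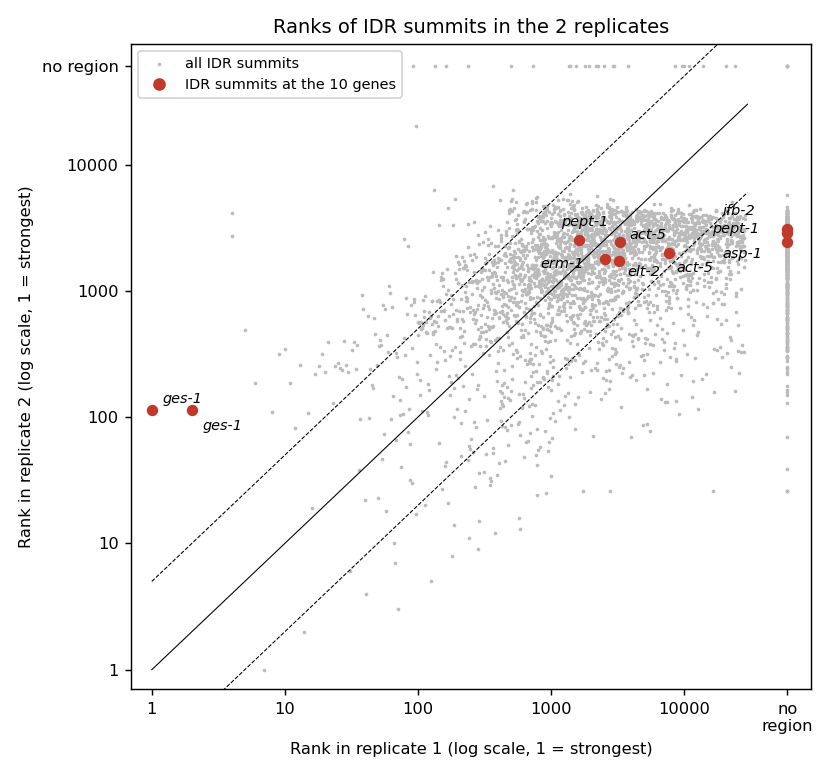
Rank of each IDR summit in replicate 1 (horizontal) and replicate 2 (vertical), both on log scales with 1 the strongest, for the 10 summits at the intestinal genes (red) and all 3909 (grey). The solid line marks equal ranks, the dashed lines a factor of 5, and points at the margins have no region over the summit in that replicate. The ges-1 summits lie at ranks 1 and 2 of replicate 1 and rank 113 of replicate 2. The summits of pept-1 (intron), ifb-2 and asp-1 lie at the margin with no replicate 1 region over them.

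The bases around the summits were compared with those at all IDR summits. The GATA site TGATAA, which reads TTATCA on the other strand, was within 50 bp of 4 of the 10 summits, at ges-1 (1155 bp upstream), at both summits of act-5 and at ifb-2, and in 18% of all 3909 windows. At ges-1 a TGATAG, also a GATA site and added after the window had been seen, started 19 bp downstream of the summit and the TGATAA 31 bp downstream, on the same strand. A pair of GATA sites upstream of ges-1 is known to direct its expression to the gut. Both motifs stood together in 1.84% of all windows. At act-5 the TGATAA began 5 bp after the distal summit and, on the other strand, 7 bp before the proximal one. AGATAA was at none of the 10 and in 6.68% of all windows.

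The ACGT core was present at 2 of the 10 summits, beginning 9 bp before that of pept-1 and 45 bp before the proximal one of act-5, and in 26.1% of all windows. Of the other sequences, which had been found on these data before, ACGCGC was at erm-1 only (12.3% of all windows), and neither GAGCGC (12.4%) nor the motif ACGCAG (14.1%) was at any of the 10. AGAGAG was at both summits of act-5 (18.6%), and GAGAGA, which overlaps it, at the proximal one (22.3%). The windows had a median GC content of 42.1%, from 28.7% at the intronic summit of pept-1 to 60.4% at erm-1, against 43.6% over all IDR windows. A match is a run of letters in the window and says nothing of what bound there.

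Other genes of the gut were counted in the same window, from lists chosen with earlier results known, and 27 of 68 had an IDR summit (39.7%). Genes of the terminal web, brush border and apical junctions had the most, 9 of 11, led by the intermediate filament genes ifp-1 (277 bp upstream, rank 1896) and ifc-2 (in an intron and 42 bp from one of its starts, rank 2551). Their windows were also longer, with a median of 6699 bp. Digestive proteases and lysozymes had 7 of 16, led by cpr-3, a cathepsin B relative like cpr-1 (72 bp upstream, rank 1465), and asp-3. The asp-3 summit, 1911 bp upstream at rank 1877, was 85 bp from the start of sgca-1. Genes of transport and the defecation rhythm had 4 of 10, led by the proton pump gene vha-6 (rank 759, 35 bp from the start of VW02B12L.2). Next came pgp-1, in an intron at rank 1316, where the nearest start was that of cul-6 (4264 bp).

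The remaining gut lists were nearer to the 22.1% of all genes. Intestinal transcription factors had 2 of 6, nhr-8 (rank 1494, 142 bp from the start of mrps-24) and pqm-1 (in a coding exon, rank 1893), and elt-4, end-1, end-3 and dve-1 had none. Metal handling genes had 2 of 8, the ferritin gene ftn-2 (1129 bp upstream, rank 1471) and the zinc transporter gene ttm-1 (in an intron, rank 2676). Yolk and lipid genes had 2 of 12, vit-1 (rank 2633, 647 bp from the start of spp-14) and the desaturase gene fat-6 (rank 3009). Gut granule genes had 1 of 5, glo-4 (565 bp upstream, rank 929). Of the 27 strongest summits, 20 lay nearest to the gene's own start and 7 nearest to another gene's. In 6 the rank was at least 5 times better in replicate 2, and in 1, at let-413, it was at least 5 times better in replicate 1. In 9 only replicate 2 had a region over the summit. For comparison, muscle genes had 2 of 15, pharynx genes 2 of 15 and hypodermis and seam genes 0 of 14 in the IDR list.

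**Figure D4:**
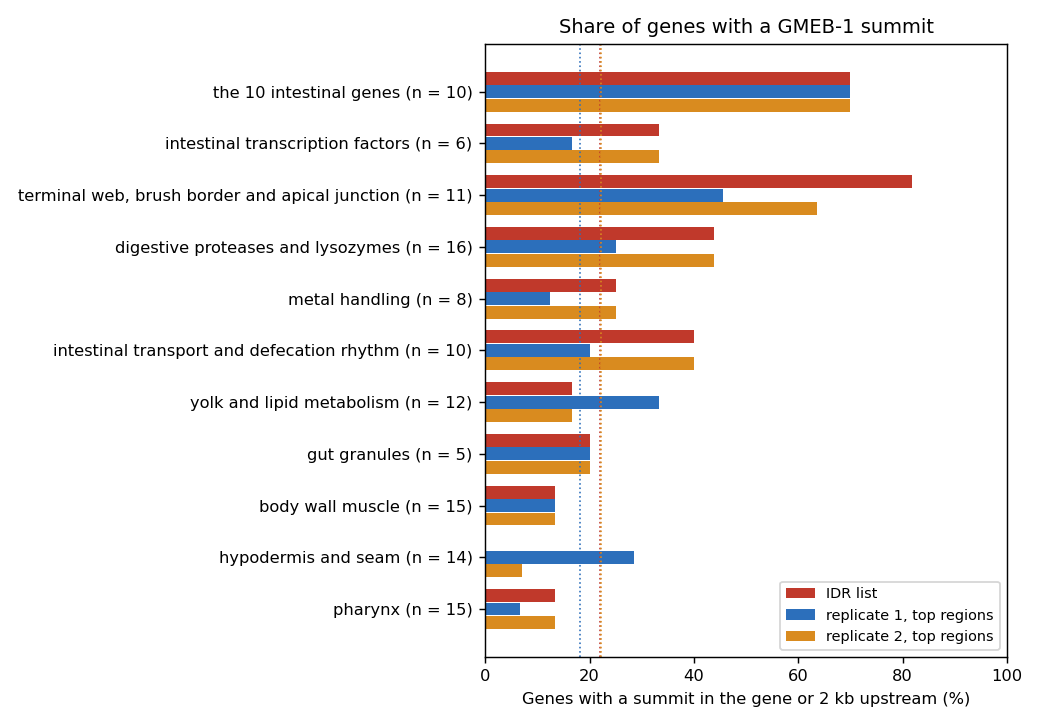
Percentage of genes with a summit in the gene or within 2 kb upstream, for the 10 intestinal genes and each further list, in the IDR list and in the 3909 strongest regions of each replicate, where dotted lines give the share of all protein-coding genes (22.1%, 18.2% and 22.2%). The 10 intestinal genes stand at 70% in all 3, a value that their choice favours, and hypodermis and seam genes stand at 0% in the IDR list and at 28.6% in replicate 1.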

How the data were processed

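Regions came from 2 replicates of 1 group. Per the deposited readme, each relaxed list was called from 1 replicate's alignments and a control, a further one from both, and the IDR list was derived from them. The sources used here do not give the caller, the aligner, the IDR threshold or the depth, so no interval for counting error is given. Each region has a signal from the authors' caller and a deposited −log10 q-value, at a ceiling in all IDR regions, so regions were ranked by signal. The ce11 lists were used with Ensembl release 115 (WBcel235), and bases were read from the RefSeq copy of that build. The 10 genes, the further gene lists and the motifs were chosen with earlier results of these data known. All names matched but apt-6, apt-7 and elt-5. The named genes are the 10, the 2 strongest of each gut list, and genes whose start was nearer to a summit. Named outside that rule, after their values were seen, were let-413, the gut factors without a summit (elt-4, end-1, end-3 and dve-1), unc-119, and C52E4.17 and T08G5.1 beside cpr-1 and mtl-2. A summit's rank in a replicate is that of the strongest region covering it. No tests were made. Assigning 200 simulated summits recovered 200. Python 3.11.15 and matplotlib 3.10.9 were used.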

Additional observations from a re-analysis of the deposited data

How the results depend on the processing

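The count of 7 genes with an IDR summit was 6 with 1 kb upstream (without ifb-2), 7 with 5 kb upstream, 6 in a start window (1000 bp before any start to 200 bp after), and 7 where the nearest start had to be the gene's own. Among the 1954 strongest IDR regions it was 3 (ges-1, elt-2 and erm-1), since the other genes' summits ranked lower. The count of 10 summits was 7, 14, 6 and 9 in these windows, in that order, and 4 among the 1954 strongest. The share of all genes was not counted at these other settings, so nothing is read from how the counts changed. With the strongest regions of one replicate alone the counts were 7 genes and 11 summits for either replicate. The 5 summits that ranked far higher in one replicate were 6 at a factor of 3, 5 at a factor of 10, and 5 when summits had to lie within 200 bp. TGATAA was at 2 summits within 25 bp (10% of all windows) and at 7 within 100 bp (29.5% of all windows), and adding TGATAG within 50 bp left 4. ACGT was at 1 summit within 25 bp (14.6% of all windows) and at 4 within 100 bp (43.4%). The counts of the other motifs changed by at most 1 summit, and GAGCGC stayed at none. No paired analysis was possible because there was 1 group. Depth is unknown, so a gene with no IDR summit may hold weaker binding.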

Other observations

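Some lists had more genes in replicate 1's strongest regions than in the IDR list. Of 14 hypodermis and seam genes 4 had a summit among the 3909 strongest regions of replicate 1, 1 among those of replicate 2 and 0 in the IDR list. Of 12 yolk and lipid genes the counts were 4, 2 and 2. The share of all genes was 18.2% in replicate 1, 22.2% in replicate 2 and 22.1% in the IDR list. These differences were not tested.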
